A study of Mus musculus with 8 samples.

Results

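Messenger RNA levels after 120 min of LPS were compared with those of unstimulated cells in RAW264.7 macrophages, a mouse macrophage cell line, with most of the description given to the mRNAs that were lower. A gene entered the comparison when it had at least 50 raw read counts in the 0 min or the 120 min library, which 11260 of 23141 genes did. RNA from 1 unstimulated culture (0 min, labelled untreated) and from 7 cultures given 100 ng/ml LPS of E. coli for 15, 30 or 45 min or for 60, 75, 90 or 120 min was sequenced, with 1 library per time point. Because each side holds 1 library, no test between conditions was possible, a gene is called gained or lost when its normalized count differed by 2-fold or more, and every interval is a 95% interval of counting error alone. All cultures are of 1 transformed cell line, the labels call the RNA both cytoplasmic and total while the study describes total RNA, and the steps from the reads to the counts are given after the results.

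LPS, a component of the outer membrane of Gram-negative bacteria, is sensed by macrophages through TLR4 with the help of CD14. The signal passes through the adaptors MYD88 and TICAM1 to the transcription factors NF-kB and AP-1 and, through the same adaptors and MAP kinases, to the proteins that decide how long an mRNA lasts. The response is best known for the cytokine and chemokine mRNAs that rise within minutes. An mRNA can fall in the same period only as fast as it decays, so that a fall within 120 min is seen for short-lived mRNAs and a stable mRNA keeps its level even when it is no longer made.

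Of the 11260 genes, 667 (5.92%) were gained and 617 (5.48%) were lost, while 9976 stayed within 2-fold. The median log2 ratio of 120 min over 0 min of all tested genes was -0.01. When libraries were scaled by total counts instead, every log2 ratio shifted by -0.20, and 505 genes were gained and 920 lost. The gains were larger than the losses: the median ratio of the gained genes was 3.2 and that of the lost genes was 0.384. A difference of at least 10-fold was found for 120 gained and 14 lost genes, and one of at least 100-fold for 18 gained genes. The interval lay wholly beyond 2-fold for 557 of the gained and 426 of the lost genes. None of the lost genes was at 0 counts at 120 min, whereas 11 of the gained genes had been at 0 counts at 0 min.

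**Figure D1:**
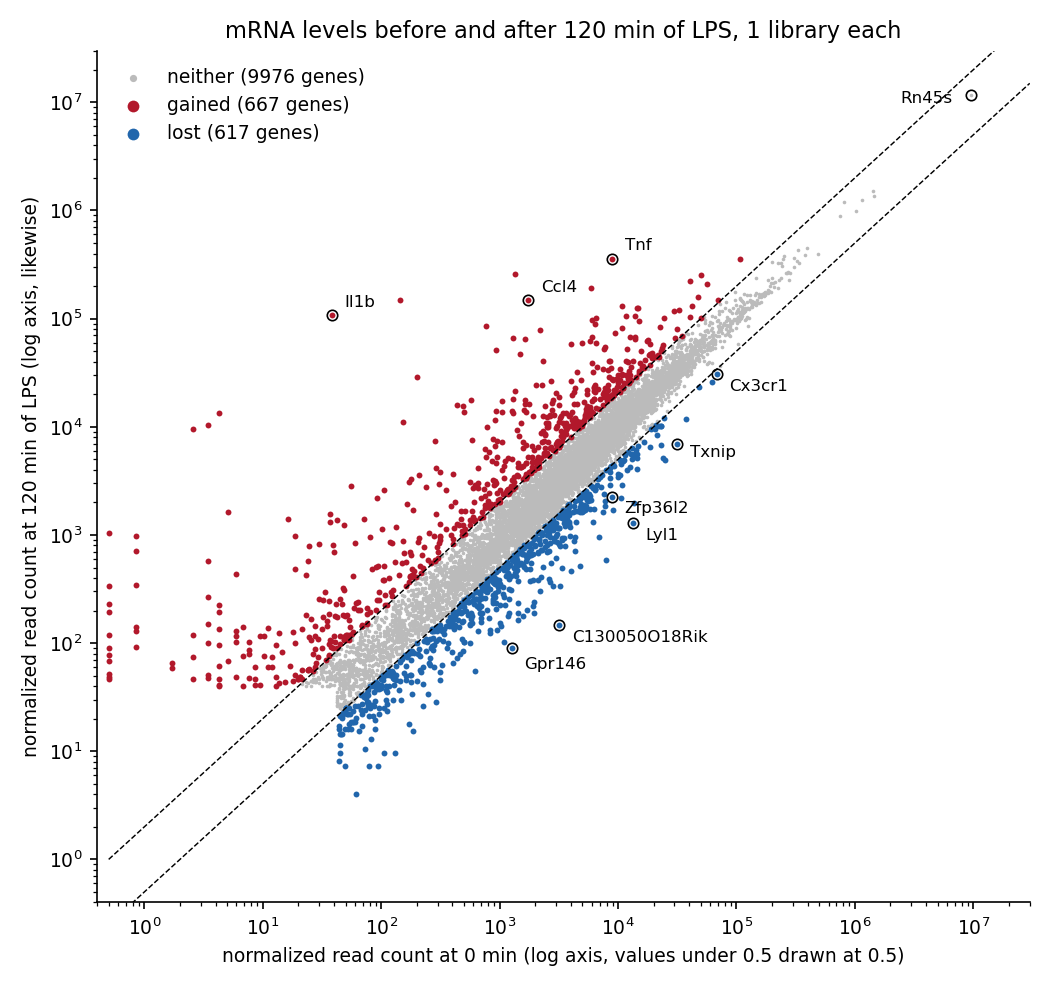
Normalized read counts at 0 min (x axis, log) and at 120 min of LPS (y axis, log) for the 11260 tested genes, 1 library per axis. Red points are the 667 gained genes, blue points the 617 lost genes and grey points the 9976 others; the dashed lines mark 2-fold. The lost genes form a dense band just under the lower line with few points far below it, whereas the gained genes spread far above the upper line.

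In reads, the losses were small. The gained genes took 2.36% of all counts at 0 min and 8.48% at 120 min, and the lost genes took 1.6% and 0.522%. The summed rise of the gained genes was 7.36 times the summed fall of the lost genes in normalized counts. Lost and gained genes started from similar levels: the median RPKM (a count scaled to mRNA length and library total) at 0 min was 3.17 for lost, 3.23 for gained and 10.4 for all tested genes with a matched transcript. Of the 2816 genes with a normalized count of at most 966.7 at 0 min, 11.2% were lost and 11.6% gained. Of the 2815 genes above 8202, 1.88% were lost and 3.41% gained. Genes below the minimum count at 0 min entered the low group only when their 120 min count reached the minimum. The 0 min level is also the denominator of the ratio. The start levels and these shares are therefore set in part by the minimum and the call, and the size of that part was not tested. In RNA of whole cultures, fewer cells of a kind and less RNA per cell cannot be told apart.

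Il1b, the gene of the inflammatory cytokine interleukin-1 beta, had normalized counts of 38.5, 55.2, 654.3, 1938, 9961, 22044, 45310 and 108097 in the order of the time points, from 0 to 120 min, a ratio of 2808 (interval 2098 to 3850). Ccl4, a chemokine gene, had 1744, 1204, 3630, 7845, 26219, 48563, 75266 and 147215, a ratio of 84.4 (80.8 to 88.2). Both rose through every library from 30 min onward. Zfp36l2, which encodes a protein that binds AU-rich elements and promotes mRNA decay, had 8823, 11602, 10329, 11234, 5189, 3789, 3018 and 2252, a ratio of 0.255 (0.245 to 0.266). Its level was above the 0 min level up to 45 min and below it from 60 min onward.

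The macrophage identity of the cells was visible in both libraries. Of 8 macrophage markers, Cd68, Emr1, Csf1r, Lyz2, Itgam and Sfpi1 stayed within 2-fold, Cd14 was gained and Fcgr1 was lost. Summed over the 8, the level was 777148 normalized counts before and 819305 after LPS. Cd14 alone made 56769 and 207492 of these, a larger rise than that of the sum, so the other markers were lower together. Markers of T cells, B cells, fibroblasts and epithelial cells had at most 31 raw counts in either library, with Cd3g, Ms4a1, Col1a1 and Epcam at 0 in both, which allows up to 0.0229 and 0.0189 CPM (counts scaled to the library total), and of the neutrophil markers S100a8 alone was tested (69 and 62 counts). Total counts were 131003451 at 0 min and 159036125 at 120 min, and the other libraries held between 100229997 and 139588954. Rn45s, the precursor of ribosomal RNA, made up 8.59% and 9.11% of counts in the libraries compared and between 8.18% and 20.54% elsewhere.

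Promoters of a few members that stand for the largest changes in each direction are shown, from 250 bases before to 50 after the start used in the RefSeq promoter table for GRCm38.p6. That start is the end of the RefSeq gene span for Cxcl2 and Cbx8, and lies 25 bases inside the span for Il1b, 34 for Lyl1 and 155 for C130050O18Rik, and distances are counted from it. Capitals mark matches to any of the motifs searched on both strands, which were an NF-kB consensus, an AP-1 site (TGANTCA), a cAMP response element (TGACGTNA), a serum response element core, an interferon response element (GAAA, any 2 bases, GAAA), the box named for its letters CCAAT, an E2F site (TTTCCCGC, TTTCGCGC, TTTGCCGC or TTTGGCGC), an NRF1 site (GCGC, any base, TGCGC), an E-box (CACGTG), an ETS core (CCGGAAGT) and the TATA box (TATAAA). Il1b lies on the minus strand (chr2:129371090-129371389) and Cxcl2, a neutrophil-attracting chemokine gene, on the plus strand (chr5:90903649-90903948). C130050O18Rik, the gene with the largest fall, lies on the plus strand (chr5:139405034-139405333), Cbx8, a Polycomb gene, on the minus strand (chr11:119040864-119041163) and Lyl1, a blood-lineage transcription factor gene, on the plus strand (chr8:84701207-84701506).
Il1b: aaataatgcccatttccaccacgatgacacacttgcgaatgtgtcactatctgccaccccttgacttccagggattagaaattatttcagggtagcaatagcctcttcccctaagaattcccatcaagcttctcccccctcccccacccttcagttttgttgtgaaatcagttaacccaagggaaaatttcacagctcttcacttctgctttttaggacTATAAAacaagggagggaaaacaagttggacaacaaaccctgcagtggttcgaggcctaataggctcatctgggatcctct
Cxcl2: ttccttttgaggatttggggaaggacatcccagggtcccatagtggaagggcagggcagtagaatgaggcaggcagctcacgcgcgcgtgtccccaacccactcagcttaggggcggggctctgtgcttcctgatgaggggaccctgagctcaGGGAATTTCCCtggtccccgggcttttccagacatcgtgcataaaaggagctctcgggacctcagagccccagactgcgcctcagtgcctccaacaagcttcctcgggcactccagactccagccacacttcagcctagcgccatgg
C130050O18Rik: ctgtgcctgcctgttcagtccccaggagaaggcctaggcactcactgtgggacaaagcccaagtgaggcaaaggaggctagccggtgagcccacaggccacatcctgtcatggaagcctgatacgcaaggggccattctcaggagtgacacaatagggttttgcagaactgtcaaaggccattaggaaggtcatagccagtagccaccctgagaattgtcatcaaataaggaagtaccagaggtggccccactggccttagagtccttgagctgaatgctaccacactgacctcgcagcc
Cbx8: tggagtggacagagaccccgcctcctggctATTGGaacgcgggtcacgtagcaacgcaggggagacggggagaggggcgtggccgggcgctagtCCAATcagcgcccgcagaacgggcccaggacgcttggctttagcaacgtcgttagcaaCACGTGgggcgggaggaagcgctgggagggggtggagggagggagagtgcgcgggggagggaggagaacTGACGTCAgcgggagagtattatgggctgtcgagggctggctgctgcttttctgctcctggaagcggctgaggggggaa
Lyl1: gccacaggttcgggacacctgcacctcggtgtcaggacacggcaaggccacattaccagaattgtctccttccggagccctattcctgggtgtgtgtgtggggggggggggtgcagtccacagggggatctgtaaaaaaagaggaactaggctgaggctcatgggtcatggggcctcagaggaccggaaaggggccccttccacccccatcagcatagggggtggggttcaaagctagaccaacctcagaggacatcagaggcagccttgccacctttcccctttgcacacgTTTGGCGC

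The Il1b window held a TATA box 31 bases before the start and Cxcl2 held the NF-kB consensus on both strands 97 and 96 bases before the start. The Cbx8 window held a cAMP response element, an E-box and a pair of CCAAT boxes, the Lyl1 window an E2F match 42 bases after the start, and the C130050O18Rik window none of these motifs. Over the 8372 tested genes with a promoter in the table, the NF-kB consensus was present in 10.5% of the 486 gained, 4.42% of the 452 lost and 5.11% of all, against 4.72% of the 16234 promoters of all genes of the count table. The AP-1 site was in 8.85% of gained, 3.32% of lost, 4.81% of tested and 7.32% of all promoters, and the cAMP response element in 7.2%, 2.43%, 5.52% and 3.76%. Motifs found often at broadly expressed genes were less frequent in gained and lost than in all tested promoters: the NRF1 site was in 4.32% of gained, 5.53% of lost, 11.5% of tested and 6.71% of all promoters, and the ETS core in 3.91%, 3.76%, 9.33% and 5.36%. The CCAAT box alone was more frequent in lost than in all tested promoters, 43.6% against 39.7%. The TATA box, a mark of many inducible genes, was in 11.1% of gained, 6.19% of lost, 6.74% of tested and 12.9% of all promoters. The interferon response element was in 4.73% of gained, 2.21% of lost, 3.08% of tested and 3.36% of all promoters, the serum response element core in 3.09%, 0.885%, 1.18% and 1.5%, the E-box in 11.7%, 9.29%, 10.6% and 8.26%, and the E2F site in 2.06%, 3.76%, 4.38% and 2.86%. A match is a description of the letters only.

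C130050O18Rik, a gene without an established function, had the largest fall among the genes with at least 200 normalized counts at 0 min. Its normalized counts were 3202, 3212, 2949, 2328, 1629, 833.6, 474.8 and 145.9 in the order of the time points, and its ratio was 0.0456 (0.039 to 0.0529). Gpr146, an orphan receptor gene linked to cholesterol metabolism in the liver, came next with 1270, 1348, 1148, 686.7, 317, 159.1, 124.4 and 89.2 and a ratio of 0.0702 (0.0573 to 0.0853). These genes are neighbours: Gpr146 spans chr5:139377697-139396415 and C130050O18Rik chr5:139405129-139416092, 8714 bases apart. Both lie within the span of 3110082I17Rik (chr5:139359739-139460534), whose ratio was 0.762 (0.735 to 0.79).

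The other 18 genes of the 20 with the lowest ratios had ratios between 0.0741 and 0.137. Kbtbd11, a BTB and kelch domain gene, went from 7988 to 591.6 normalized counts, with 9148, 6970, 5916, 3007, 1805 and 1135 between. Themis2, which encodes a signalling adaptor of macrophages and B cells, had 3982, 4086, 3989, 3185, 1828, 778.7, 570 and 461.1. Angptl4, an inhibitor of lipoprotein lipase, had 1705, 1522, 1171, 737.5, 459.4, 319.7, 261.5 and 202.6. Angptl4 was thus lower in each later library than in the one before, whereas Themis2 held its 0 min level until 30 min. The others, with ratios in brackets, included the pro-apoptotic BH3-only gene Bmf (0.114), the MAP kinase phosphatase gene Dusp6 (0.118), Tifab (0.122), a relative of the TRAF-interacting protein gene Tifa, the ubiquitin ligase gene Rnf144b (0.0972), Pwwp2b (0.135), Fam212a (0.115) and the uncharacterized genes 5031414D18Rik (0.105) and 9930111J21Rik1 (0.115).

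By amount of mRNA the largest losses were different genes. Cx3cr1, the fractalkine receptor that marks resident macrophages and microglia, fell by 37202 normalized counts, from 67930, 70682, 65934, 61930, 54204, 46716 and 41909 to 30728, a ratio of 0.452 (0.447 to 0.458). Cyth4, an exchange factor for ARF GTPases, had a ratio of 0.413, Sirpa, the receptor for the "don't eat me" signal CD47, 0.479, and Slco4a1, an organic anion transporter, 0.317. Txnip, the thioredoxin-interacting protein that restrains glucose uptake, had 0.219. St8sia4 (a polysialic acid synthase, 0.215), Zfp710 (0.2), Lrrc33 (a TGF-beta binding protein, 0.297), Tgfbr2 (TGF-beta receptor, 0.443) and Med22 (Mediator subunit, 0.394) complete the 10. Per length, Cyth4 (199 RPKM), Cx3cr1 (162), Sirpa (109), Slco4a1 (107) and Txnip (99.5) were well above the median RPKM of tested genes at 0 min. The 10 genes together made 20.4% of the summed fall of the lost genes.

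The time course of the lost genes was gradual. Their median normalized count was 938.5, 977.2, 881.1, 775.9, 585.9, 460.5, 391 and 316.1 in the order of the time points, while the median of the genes within 2-fold lay between 3712 and 3772 throughout. Of the 617 lost genes, 502 had their lowest level in the 120 min library. The genes were called from the 0 and 120 min counts, so the levels at both ends are set in part by the call. The highest level lay in the 0 min library for 201 and in the 15 min library for 309 genes, and at 30 or 45 min for 103. Spread evenly over 120 min, the fall of the median lost gene is a halving every 86.9 min, that of Lyl1 every 35.7 min and that of C130050O18Rik every 26.9 min; 107 of the lost genes halved in under 60 min on this measure, which is the net of synthesis and decay.

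**Figure D2:**
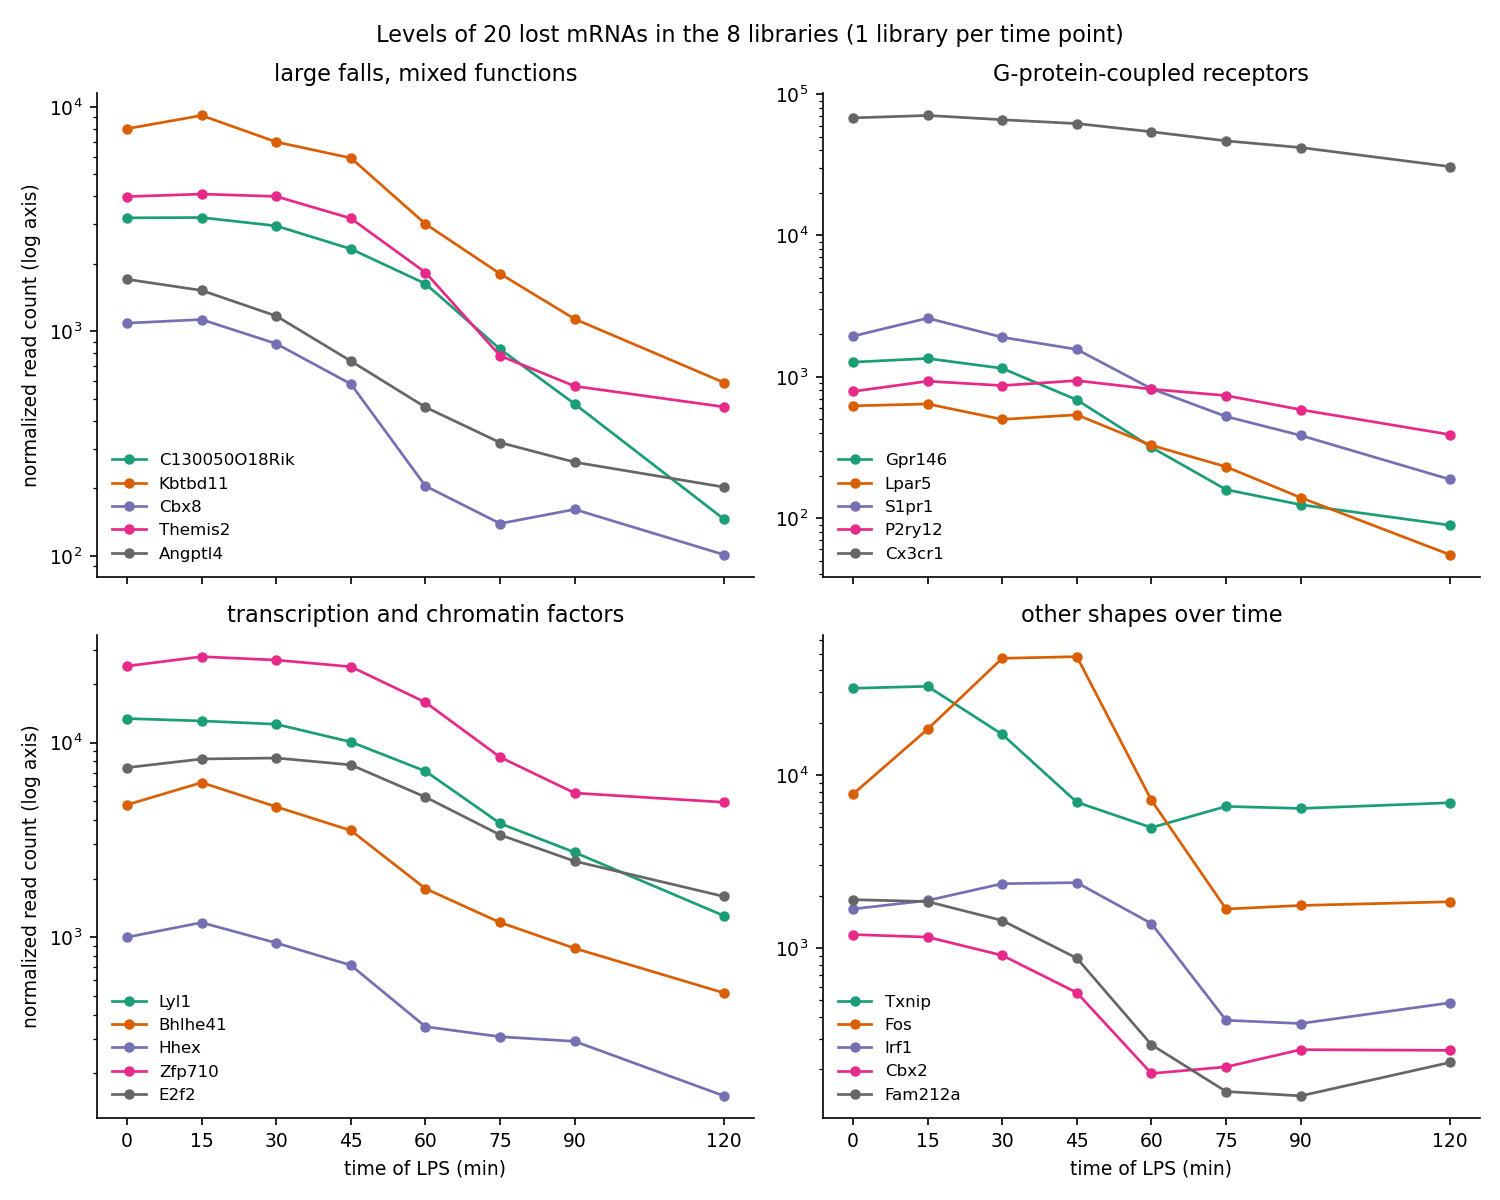
Normalized read counts (y axis, log) of 20 lost genes in the 8 libraries against time of LPS (x axis, min), 1 library per point. Most lines of the other 3 panels change little until 30 min and are lowest at 120 min; in the lower right panel Txnip and Cbx2 have stopped falling at 60 min, and Fos and Irf1 are above their 0 min level at 45 min and below it at 75 min.

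A few of the lost genes had other shapes. Txnip reached its lowest level early, with 31539, 32373, 17100, 6949, 4960, 6572, 6399 and 6899 normalized counts, so that the 120 min level was already reached at 45 min. Fos, an immediate early AP-1 gene, had 7734, 18321, 46926, 47986, 7127, 1683, 1765 and 1854, a rise and a fall to a ratio of 0.24 (0.229 to 0.251). Irf1, an interferon regulatory factor, had 1684, 1886, 2356, 2390, 1388, 384.4, 368.2 and 484.7, a ratio of 0.288. A comparison of the end points alone would thus call Fos a lost gene although its level was the highest at 45 min. Klf11 had its highest level, 1124, at 45 min as well, and ended at 128.1 from 658.7. Smad6 was at 1420 at 45 min and went from 1105 to 223.7.

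Pairs of libraries that do not include 0 or 120 min gave mostly the same directions. At 90 against 15 min, 3.69% of 11065 tested genes were lost, and of the 600 lost genes tested there 331 (55.2%) were past 2-fold and 598 were lower. At 75 against 30 min, 2.38% of 11112 genes were lost, and 190 (31.8%) of 597 were past 2-fold and 587 were lower. Of the gained genes, 367 (61%) of 602 were past 2-fold at 90 against 15 min, where 3.67% of all genes were, and 595 were higher. At 75 against 30 min, where 2.22% of all genes were gained, 225 (38.1%) of 590 were past 2-fold and 542 were higher, and 10 were past 2-fold in the opposite direction. The 75 and 90 min libraries had higher Rn45s shares (20.54% and 15.81%) than the 30 min library (8.18%), and the 15 min library had 12.96%; the part of this in the pairs was not tested.

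G-protein-coupled receptors for lipids, nucleotides and chemokines lost and gained equal numbers of members. Of 44 tested, 9 (20.5%) were lost and 9 (20.5%) gained, against 5.48% and 5.92% of all genes. Lpar5, a receptor for lysophosphatidic acid, had 622.8, 642.3, 499.5, 538.7, 327.7, 230.9, 139.7 and 55.1 normalized counts, a ratio of 0.0885 (0.068 to 0.114). S1pr1, the sphingosine 1-phosphate receptor that guides exit from tissues, had 1939, 2601, 1905, 1563, 823.6, 523.8, 384.7 and 188, a ratio of 0.097 (0.0843 to 0.111). P2ry13 and P2ry12, neighbouring receptors for ADP on chromosome 3, had ratios of 0.0917 (0.0461 to 0.166) and 0.495 (0.442 to 0.553). The lost group held as well the chemokine receptor gene Cxcr4 (log2 ratio -1.89), the oxysterol receptor gene Gpr183 (-1.19) and S1pr2 (-1.06). On the gained side were Ccrl2 (32.1-fold), which binds chemerin, and the adenosine receptor gene Adora2a (37.9, from 2 raw counts, interval 10.2 to 318). Gpr18 (13.4, from 9 raw counts) and Lpar1 (13.3, from 6 raw counts, interval 5.84 to 37.2) were gained as well. For lysophosphatidic acid, 1 receptor gene was thus lost and another gained. Below the receptors, of 26 genes of G-proteins and their regulators, 3 (11.5%) were lost and 2 (7.69%) gained. The lost genes were Gna15, a G-protein alpha subunit of blood cells (0.162), Rgs14 (0.271) and Rgs12 (0.41). The gained genes, Rgs1 (3.24) and Rgs16 (11.8), are of the same Rgs family of G-protein inhibitors, which thus changed in both directions.

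Transcription factors of the blood and macrophage lineage were past 2-fold in both directions. Of 47 tested, 9 (19.1%) were lost and 5 (10.6%) gained, against 5.48% and 5.92% of all genes. Lyl1, a basic helix-loop-helix factor of early blood cells, was the most abundant per length of the 20 genes with the lowest ratios (65.9 RPKM at 0 min) and had 13286, 12917, 12429, 10075, 7130, 3846, 2728 and 1289 normalized counts, a ratio of 0.097 (0.0921 to 0.102). Its relative Tal1 had a log2 ratio of -1.20, and Cbfa2t3, a corepressor that binds these factors, -3.12. Gfi1b, a repressor of the red cell and platelet lineages, had a ratio of 0.138 and Hhex, a homeobox factor, of 0.153. Tfeb, the master regulator of lysosome genes, had a log2 ratio of -2.03, Rara -1.40 and Fli1 -1.30. The gained members were Ets2 (10.3-fold), Cebpd (4.19), Nr1d1 (3.53), Bcl6 (2.84) and Zeb2 (log2 ratio 1.01). The gene of the macrophage master factor PU.1, Sfpi1, was among those within 2-fold.

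Genes that FoxO factors or energy stress induce had the highest share of losses of the lists with 10 or more tested members. Of 31 tested, 12 (38.7%) were lost and 4 (12.9%) gained, against 5.48% and 5.92% of all genes. Their median log2 ratio was -0.57. Sesn1, a stress-induced inhibitor of mTORC1, had 6927, 7774, 6484, 5794, 4157, 2346, 1697 and 948.2 normalized counts, a ratio of 0.137 (0.129 to 0.146). Txnip and its relatives Arrdc3 (0.157), Arrdc2 (log2 ratio -1.66) and Arrdc4 (-1.20), alpha-arrestins that bind transporters and receptors, were all lost. Pik3ip1, an inhibitor of PI3 kinase, went from 49.6 to 7.29 normalized counts, a ratio of 0.147 (0.064 to 0.299). The cell cycle inhibitor genes Cdkn1b (log2 ratio -1.19) and Cdkn2d (-1.45) were lost, whereas Cdkn1a, the gene of another such inhibitor, was gained 5.22-fold. Tsc22d3, the glucocorticoid-induced leucine zipper (-1.44), and Tsc22d4 (-1.07) were lost and Tsc22d1 was gained (5.43-fold).

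Zinc finger genes were a further group with many losses. Of 289 genes named Zfp and a number, 33 (11.4%) were lost and 9 (3.11%) gained, where 5.48% and 5.92% of all genes were. Of 54 Zbtb, Zscan and Zkscan genes, 11 (20.4%) were lost and 3 (5.56%) gained. Zfp710 was the most abundant of those lost by count, with 24718, 27633, 26534, 24540, 16091, 8414, 5507 and 4937 normalized counts. Zfp324 had a ratio of 0.14 (0.125 to 0.156) and Zbtb8a of 0.141 (0.12 to 0.165). The largest gain was that of Zfp811, from 6 raw counts to a normalized count of 1624, a ratio of 316 (145 to 863), followed by Zfp703 (4.2) and Zfp263 (3.75).

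The Polycomb genes Cbx2 and Cbx8, which encode chromodomain proteins that bind the repressive histone mark H3K27me3, lie next to each other on chromosome 11 and were both lost. The pair was picked with its values known, as were the Frat genes, P2ry12 and Bhlhe40. Cbx8 had 1088, 1129, 881.1, 582.8, 204.8, 139.4, 161.2 and 101.3 normalized counts, a ratio of 0.0931 (0.0768 to 0.112). Cbx2 had 1199, 1160, 909.7, 554.5, 189.7, 207, 260.3 and 257.7, a ratio of 0.215 (0.19 to 0.243). Most of the fall of both genes lay before 60 min.

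Some further lost genes lay side by side, but most lay beside a gene within 2-fold. Among 8468 pairs of tested genes that follow each other within 100 kb, both were lost in 52 (0.614%) and both gained in 65 (0.768%). In 42 (0.496%), 1 was gained and 1 lost, and in 835 (9.86%) a lost gene followed or preceded a gene within 2-fold. Of the 52 pairs, 41 did not overlap. They included Frat1 and Frat2 (ratios 0.171 and 0.258), a pair of genes of GSK3-binding proteins on chromosome 19 separated by 13389 bases, Arhgef10 and Kbtbd11, Acrbp and Lpar5, Cdc6 and Rara, and E2f2 and Asap3. Among overlapping pairs, Txnip lies within the span of Gm15441 (log2 ratios -2.19 and -1.36). The library kit kept strand, but whether the counting used it is not given in the sources used here, so reads of overlapping genes may not be told apart.

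Ubiquitin ligase genes and Tmem genes each had more losses than the 5.48% of all genes. Of 163 TRIM, F-box, Klhl and Rnf genes, 17 (10.4%) were lost and 6 (3.68%) gained, among them Rnf144b, Trim65 (0.15) and Klhl30 (0.166) on the lost side and Rnf19b (7.13) and Fbxo15 (5.73) on the gained side. Of 149 Tmem genes, which share only a transmembrane segment, 16 (10.7%) were lost, led by Tmem51 (0.152) and Tmem104 (0.222), and 6 (4.03%) were gained. Tmem119, a marker of microglia, went from 219 to 53.5 normalized counts.

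**Figure D3:**
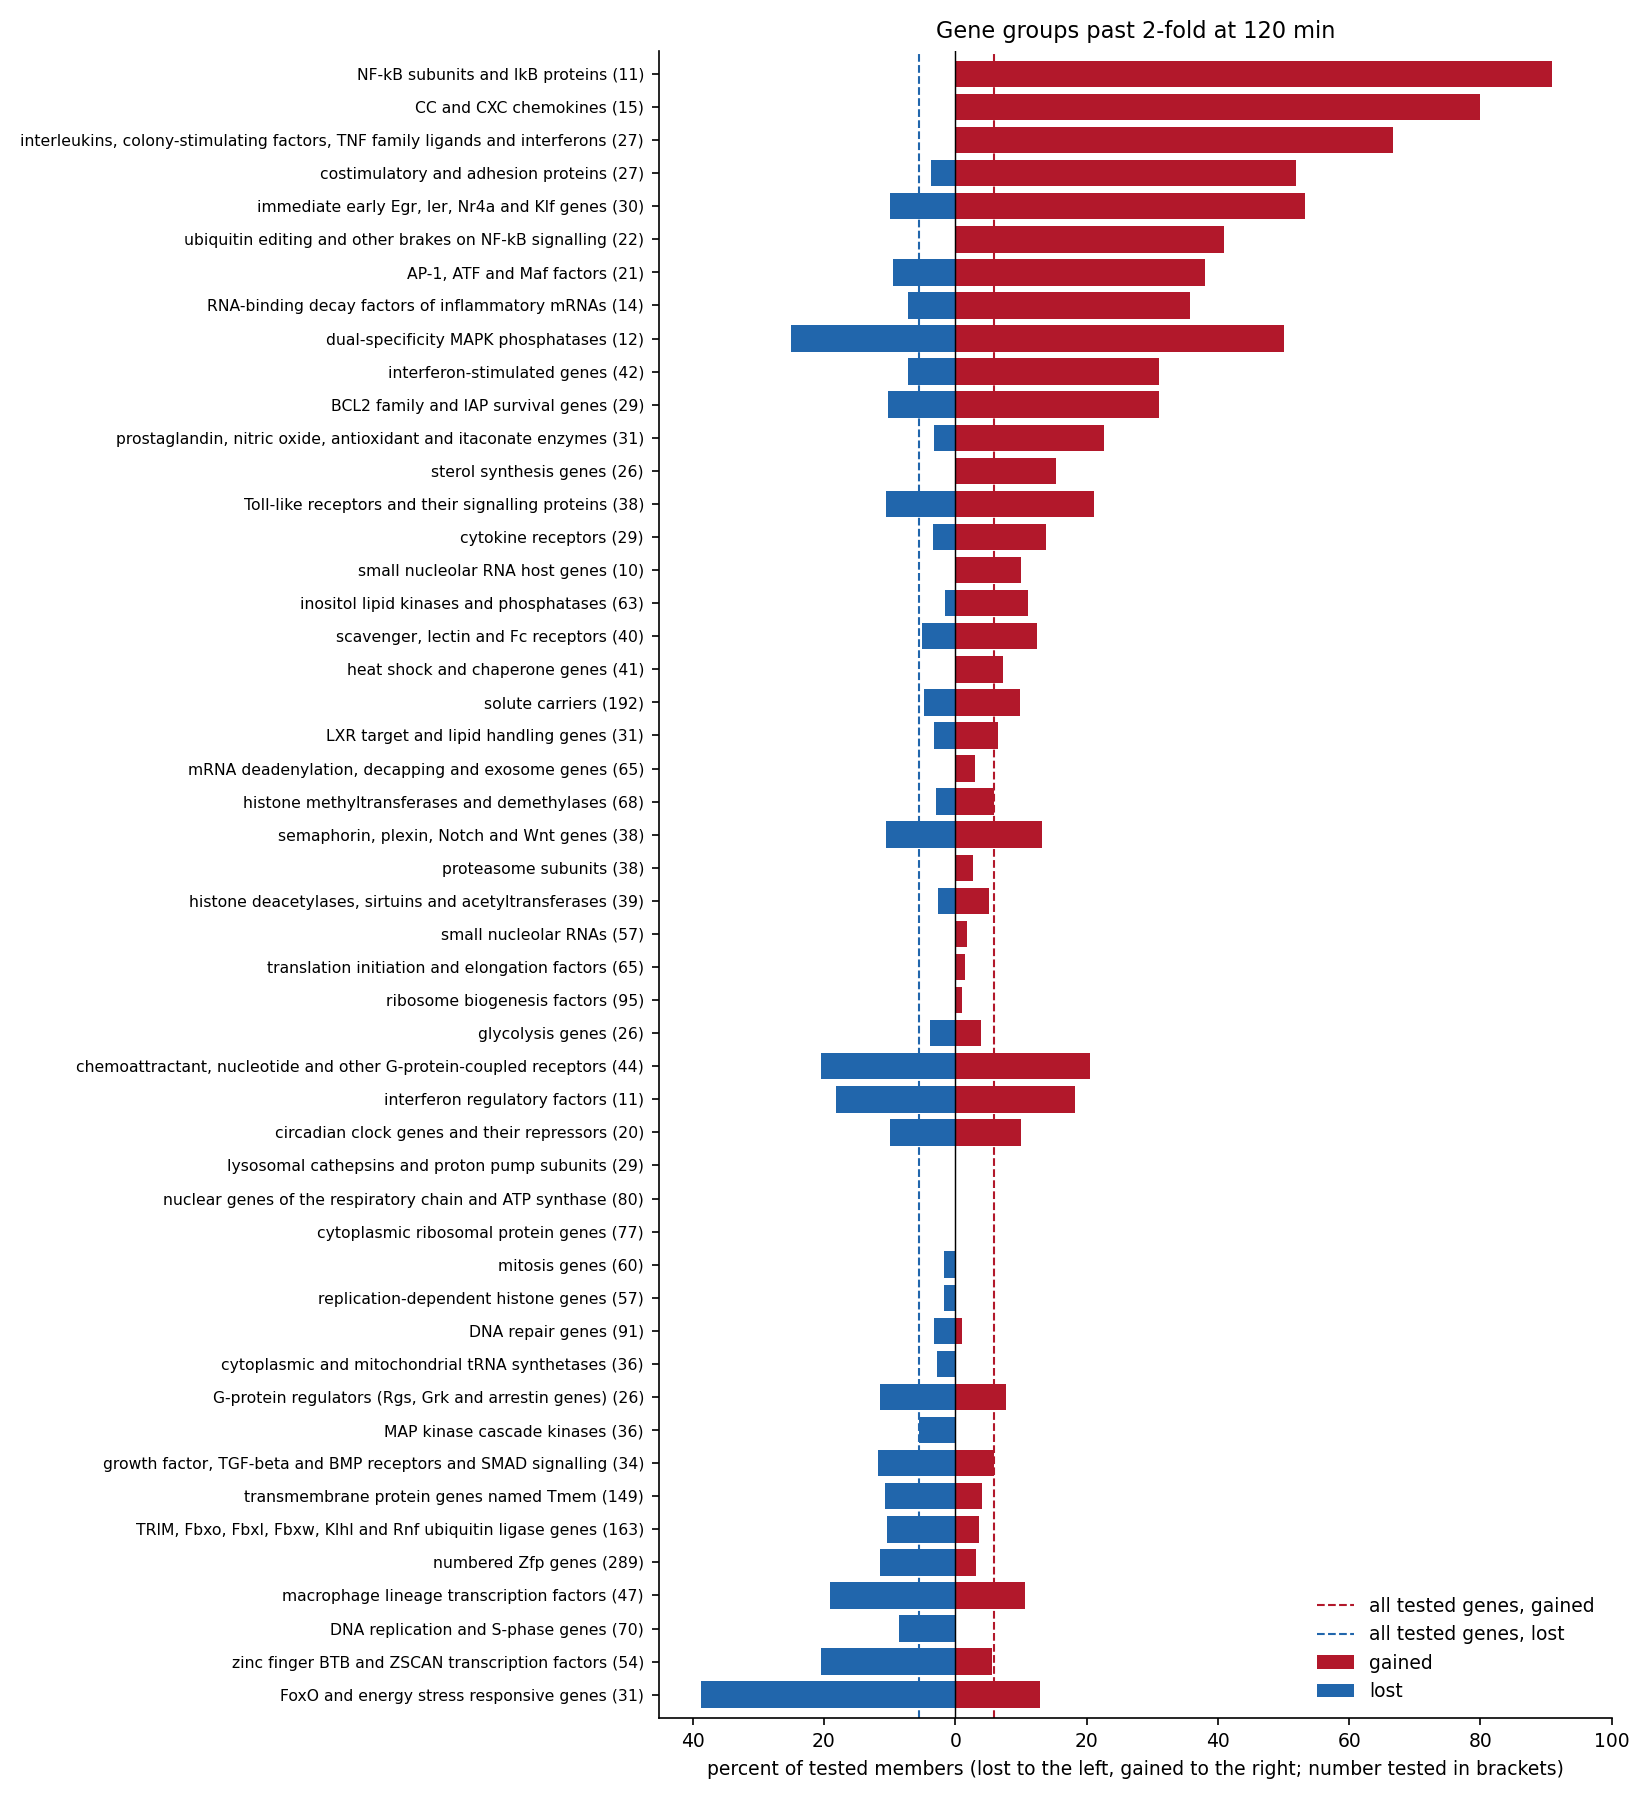
Percent of tested members lost (blue, to the left) and gained (red, to the right) at 120 min for gene groups with at least 10 tested members, the number tested in brackets; dashed lines give all tested genes, 5.48% lost and 5.92% gained. The groups at the bottom, from FoxO and energy stress responsive genes (38.7% lost) upward, have more members lost than gained, and the groups of the NF-kB response at the top have 66.7% or more of their members gained and none lost.

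Of 70 DNA replication and S-phase genes, 6 (8.57%) were lost, where 5.48% of all genes were, and none was gained; 54 had a log2 ratio below 0 and the median was -0.26. E2f2, an activator of S-phase genes, had 7436, 8237, 8333, 7684, 5248, 3356, 2458 and 1620 normalized counts, a ratio of 0.218 (0.207 to 0.229). Gins3 (0.373) and Cdc6 (0.39) and Orc5 (0.436), which load or fire replication origins, followed, with Tk1 (log2 ratio -1.15) and Gmnn (-1.05). Of 60 mitosis genes 1 was lost, Psrc1 (0.467), and of 57 replication-dependent histone genes 1, Hist2h2be (0.422). The median log2 ratio of the mitosis genes was 0.02, and it was below 0 on the total count scale.

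Signalling families of the LPS response itself were split, where 5.92% of all genes were gained and 5.48% lost. Of 12 dual-specificity MAP kinase phosphatase genes, 6 (50%) were gained and 3 (25%) lost. Dusp6 had 2842, 3294, 2504, 1626, 641.1, 635.1, 497.7 and 334.7 normalized counts, a ratio of 0.118 (0.106 to 0.131). The other lost members were Dusp7 (0.363) and Dusp14 (0.404). Dusp1 (27.6), Dusp2 (13.1), Dusp5 (72.1) and Dusp8 (77.9, from 4 raw counts) were gained. Of 38 Toll-like receptor pathway genes, 4 (10.5%) were lost and 8 (21.1%) gained. The LPS receptor gene Tlr4 had 7349, 8229, 7189, 6252, 5204, 6504, 6187 and 3575 normalized counts, a ratio of 0.486 (0.469 to 0.505), an interval that includes 2-fold. Tlr13, a sensor of bacterial ribosomal RNA (0.314), Tlr3 (0.413) and the adaptor gene Ticam2 (0.383) were lost, while the adaptor gene Ticam1 (7.27), Traf1 (36.4) and Ikbke (8.12) and the co-receptor gene Cd14 (3.66) were gained.

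Among the decay factors of inflammatory mRNAs, 5 of 14 (35.7%) were gained and 1 (7.14%), Zfp36l2, was lost. Of all genes, 5.92% were gained and 5.48% lost. Zfp36, its relative tristetraprolin, had 3172, 9992, 56639, 84456, 21936, 11301, 13667 and 15868 normalized counts, a ratio of 5 (4.83 to 5.18) after a peak at 45 min, and Zc3h12a, the endonuclease Regnase-1, rose 12.9-fold. At 120 min Zfp36 was thus above and Zfp36l2 below its 0 min level. Of 21 AP-1, ATF and Maf genes, 8 (38.1%) were gained, such as Junb (8.64) and Fosl1 (8.21), and 2 (9.52%) were lost, Fos among them. Of 30 immediate early genes, 16 (53.3%) were gained, and the Kruppel-like factor genes Klf11 (0.194), Klf10 (0.204) and Klf4 (0.339) were lost (10%). Of 29 survival genes, 9 (31%) were gained, with Bcl2l11 (12-fold), the gene of the pro-apoptotic protein BIM, among them. Bmf, Casp2 (0.463) and Casp9 (0.463) were lost (10.3%).

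Growth factor, interferon and surface receptor genes included losses as well, where 5.48% of all genes were lost and 5.92% gained. Of 34 genes of TGF-beta, BMP and growth factor signalling, 4 (11.8%) were lost, the inhibitory SMAD gene Smad6 (0.202), Id2 (0.207), Eng (0.372) and Tgfbr2, and Id3 (4.81) and Skil (2.57) were gained. Id2 and Id3, genes of related inhibitors of basic helix-loop-helix factors, thus changed in opposite directions. Of 42 interferon-stimulated genes, 13 (31%) were gained, led by Isg15 (25.5) and Oasl1 (16.3), and 3 (7.14%) were lost. Of 11 interferon regulatory factor genes, 2 (18.2%) were lost and 2 (18.2%) gained. Ifit2 (0.246), Stat2 (0.417) and Ifi47 (0.461) were the lost interferon-stimulated genes. Of 29 cytokine receptor genes, 4 (13.8%) were gained and 1 (3.45%) was lost. The lost gene was Il21r, from 130.9 to 9.72 normalized counts, a ratio of 0.0743 (0.0376 to 0.134). Of 40 scavenger, lectin and Fc receptor genes, 5 (12.5%) were gained and 2 (5%) lost. The lost genes were Treml2 (0.263) and Fcgr1 (0.381), the high-affinity IgG receptor. Of 27 costimulatory and adhesion genes, 14 (51.9%) were gained and 1 (3.7%) was lost, Cd200r1, an inhibitory receptor of macrophages (0.243). Bhlhe41, a repressor of the circadian clock, had a ratio of 0.108 (0.0994 to 0.117), whereas its relative Bhlhe40 had 1.52 (1.47 to 1.57).

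The gains included most tested genes of secreted signals and of the NF-kB system, where 5.92% of all genes were gained and 5.48% lost. Of 15 tested chemokine genes, 12 (80%) were gained and none lost, and of 27 tested cytokine genes 18 (66.7%) and none. Of 11 NF-kB and IkB genes, 10 (90.9%) were gained and none lost. The full lists held 32 chemokine and 41 cytokine genes. Members below the minimum count at 0 min were tested only when their 120 min count reached it. The chemokine and cytokine shares are thus set in part by the minimum, and hold for tested genes only. Csf3, the gene of a growth factor for neutrophils, had 2.57, 1.9, 13.9, 119.7, 507.5, 946.3, 2571 and 9634 normalized counts, a ratio of 3754 with a wide interval (1284 to 18205) because it rests on 3 raw counts at 0 min. Il1a (3157), Lif (3012), Il1b, Il6 (1139) and Cxcl2 (1032) had the next highest ratios. Il1a rose from 5 raw counts (interval 1353 to 9724), Lif from 4 (1176 to 11057) and Il6 from 1 (204 to 45015). The intervals of Csf3, Il1a, Lif and Il6 all include the Il1b ratio of 2808, so the order of these genes is not settled. Cish, an inhibitor of cytokine receptor signalling, had no count at 0 min. With that 0 set to 3 counts it was 405-fold higher, and the lower limit of its interval was 329. Flrt3 (838) and the vomeronasal receptor gene Vmn2r90 (404) each rose from 1 raw count. The largest gains by amount were those of Tnf (8922 to 359742 normalized counts), Irg1 (1350 to 257578), the itaconate-producing enzyme gene, the gamma-actin gene Actg1 (106526 to 354065), the ornithine decarboxylase gene Odc1 (50016 to 251354) and Ccl3 (5889 to 190811), whose annotated span overlaps that of Ccl4.

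The constitutive machinery of the cell changed little, where 5.92% of all genes were gained and 5.48% lost. None of 77 ribosomal protein genes, 80 respiratory chain and ATP synthase genes and 29 lysosomal cathepsin and proton pump genes passed 2-fold in either direction, with log2 ratios from -0.25 to 0.55, -0.52 to 0.27 and -0.43 to 0.5. The most abundant of them had ratios of 1.06 (Rpl4), 1.04 (Atp5b) and 1.24 (Ctsb). Of 95 ribosome biogenesis factors 1 was gained, Rrs1 (2.08), and none was lost, with a median log2 ratio of 0.34. Of 65 genes of mRNA deadenylation, decapping and the exosome, Btg2 (6.62) and Btg1 (2.93) were gained and none was lost. Of 38 proteasome subunit genes 1 was gained, Psmb11 (2.03), and of 36 tRNA synthetase genes 1 was lost, Pars2 (0.477).

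Lost mRNAs differed from other tested mRNAs in composition. Over the 584 lost genes with a matched transcript (of 10669 tested genes with one), the median mRNA had 6 exons against 9 in all tested and 8 in the 621 gained genes, and 13.7% had at most 2 exons against 6.38% and 12.88%. The median GC content was 53.5% for lost, 49.7% for gained and 50.2% for all tested mRNAs. The 3' untranslated region was longer in both directions, with a median of 1318 bases for lost, 1258 for gained and 1025 for all. The AUUUA pentamer, the core of AU-rich elements, was less dense in the 3' untranslated regions of lost mRNAs, at a median of 0.978 per kb, than in those of all (1.29) and gained (1.85) mRNAs, but 68.2% of lost mRNAs held at least 1, against 67.9% of all and 81.2% of gained.

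Split into 4 equal groups by 0 min count, from lowest to highest, the median exon number was 6, 6, 6 and 8 for lost and 7, 8, 10 and 11 for all tested genes. The whole table also shifted with composition between the compared libraries. In 5 equal groups from the lowest to the highest GC content, the median log2 ratio of all genes was 0.15, 0.05, -0.04, -0.09 and -0.12, and 2.48%, 3.56%, 5.34%, 7.17% and 8.81% were lost. By length it went from -0.09 in the shortest to 0.18 in the longest of 5 such groups. With the GC trend removed, 550 genes were lost, 520 of them among the 584; with the length trend removed, 604 were lost, 544 of them among the 584. The part of library preparation in these trends was not tested.

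**Figure D4:**
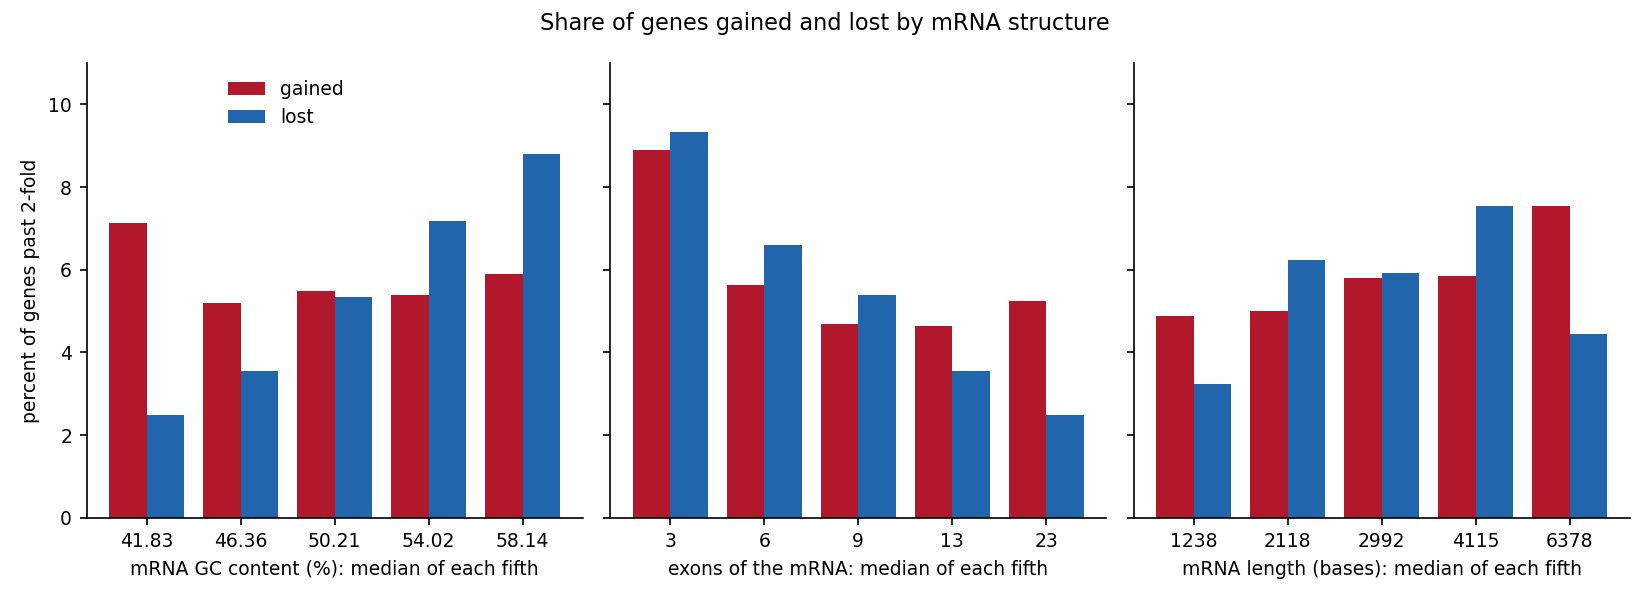
Percent of tested genes gained (red) and lost (blue) in 5 equal groups by mRNA GC content, exon number and mRNA length (x axes, the median of each group), over 10669 genes with a matched transcript. The lost share climbs from 2.48% to 8.81% with GC content and drops from 9.33% to 2.48% with exon number. The gained share lies between 4.64% and 8.9% in all 3 panels. It is also highest, at 8.9%, in the group with the fewest exons, and 5.25% in the group with the most.

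At the 2-fold limit, Pvrl1, Fn3krp and Tmx2 were just inside the lost group with ratios of 0.4994, 0.4983 and 0.4979, and Tmem110, Slc9a3r2 and Amz1 just outside with 0.5009, 0.5013 and 0.502. On the gained side Gtpbp4 and Smndc1 were inside with 2.0049 and 2.005, and Sestd1, Ubtd2 and Ip6k2 outside with 1.9978, 1.9975 and 1.9935. At the minimum of 50 counts, 1700001G11Rik with 50 and 32 counts was tested, and 1700102H20Rik with 49 and 47 was not.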

How the data were processed

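RNA of RAW264.7 cultures was depleted of ribosomal RNA with Ribo-Zero and made into directional libraries. Per the study's methods, Bowtie (version not given in the sources used here) aligned 58-base reads, with at most 2 mismatches, against mm10 RefSeq transcripts, and reads matching more than 1 gene were discarded; the submitters' processing notes also name CASAVA 1.8.2 and DESeq 1.10.1. The deposited values are the authors' raw counts, not normalized. The spike-in rows BGIVT and FLIVT, which carry no accession, were set aside (0.0275% of counts at 0 min, 0.0259% at 120 min).

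Median-of-ratios size factors over the 8 libraries (1.169 at 0 min, 1.234 at 120 min) were computed in Python 3.11.15 (numpy 2.4.6, scipy 1.17.1). A ratio has an exact conditional binomial 95% interval. A count of 0 was set to 3 counts, which allow 0.0229 CPM at 0 min and 0.0189 at 120 min; intervals and floors cover counting error only, and PCR copies are not independent molecules. The code was tested on simulated data. Transcript features come from GENCODE vM21 matched by RefSeq accession, coordinates and promoters from RefSeq (GRCm38.p6). The tested genes with coordinates were 11156.

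Genes named are the 20 lowest and 10 highest ratios with at least 200 normalized counts, the 10 largest falls and 5 largest rises in counts, up to 4 per direction and list, the most abundant member of a list with none, and 3 on either side of each limit. Other genes were named after their values were seen. Members and lists were chosen with earlier results of these data known. Results for a few genes and 1 gene group are not reported here. No sample column was left unused. Alternatives (other scales, minimums, fold limits, pairs of libraries, promoter windows) also used edgeR 4.0.16 and DESeq2 1.42.0.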

Additional observations from a re-analysis of the deposited data

How the results depend on the processing

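Counts of genes past 2-fold moved by over 1.5 times under these alternatives. With no minimum and a pseudocount of 1, 1409 genes were gained and 1099 lost; with a 1.5-fold limit 1498 and 1370, with a 4-fold limit 260 and 107. Gained genes are given first throughout. DESeq2 with a dispersion blind to time (log2 beyond 0.5, unadjusted p under 0.05) gave 1221 and 1040, and edgeR's exact test 922 and 729; both compare libraries, not conditions. At 90 against 15 min 406 genes were gained and 408 lost, at 75 against 30 min 247 and 265. Both tools covered 15665 genes. The 14 remaining alternatives, the edgeR test included, kept both counts within 1.5 times, from 505 to 952 gained and from 426 to 920 lost. The scale set the balance: total counts without Rn45s gave 510 and 905. The summed spike-in rows, an alternative chosen after seeing the data like the GC and length trends, gave 572 and 786.

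No called ratio of a named gene changed sign under another scale of the compared libraries or under a pseudocount. At 75 against 30 min the ratio fell on the other side of 1 for Arntl (0.832), Btg2 (0.306), Dusp1 (0.99), Dusp2 (0.442), Ier3 (0.683), Junb (0.616), Mir17hg (0.722), Nfkbia (0.652), Tmem88 (0.979), Tnf (0.573), Tnfaip3 (0.542), Zfp36 (0.2), Notch4 (1.08) and Rgs12 (1.27); the cause was not tested. For the gene lists under other scales, 25 counts of gained and 32 of lost members moved by over 1.5 times, and 245 and 238 did not. A change of scale shifts every log2 ratio alike, by -0.2 for total counts and -0.19 without Rn45s. Every list median therefore moved by 0.1 or more under these scales (108 comparisons) and none under the rest (162). In addition, 840 ratios of named genes left their counting interval under other scales or other pairs of libraries. The spike-in rows were not counted here. With the promoter window ended at the start, 22 motif shares moved by 1 percentage point or more, and the NF-kB consensus was in 10.3% of gained and 3.98% of lost promoters. Leaving out a library was not possible with 1 per side, and no paired analysis was possible because the groups hold 1 library each.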

Other observations

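Further groups, outside the comparisons above, gave these values, with the ratio of 120 min over 0 min in brackets. Of all genes, 5.92% were gained and 5.48% lost. Of 26 sterol synthesis genes, 4 (15.4%) were gained and none lost. Insig1, a brake on sterol synthesis, had 14199, 13940, 27994, 49912, 68248, 51851, 42317 and 28869 normalized counts from 0 to 120 min, so that its 120 min ratio of 2.03 follows a peak at 60 min. The cholesterol exporter genes Abca1 (3.87) and Abcg1 (0.358) changed in opposite directions. Of 38 semaphorin, plexin, Notch and Wnt genes, 5 (13.2%) were gained and 4 (10.5%) lost. Jag1, a Notch ligand, rose 17.6-fold, whereas Jag2 had 0.393, and the Wnt receptor genes Fzd5 and Fzd7 had 4.05 and 0.271.

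Of 68 histone methyltransferase and demethylase genes, 4 (5.88%) were gained, led by the H3K27 demethylase gene Kdm6b (36.2). The 2 (2.94%) lost were Jmjd7 (0.381) and Suv420h2 (0.431). Neither share was above that of all genes, 5.92% gained and 5.48% lost. Of 91 DNA repair genes, Ung (0.36), Chek2 (0.436) and Xpc (0.49) were lost (3.3%) and Ercc6 (2.47) was gained (1.1%). Of 63 inositol lipid enzyme genes, 7 (11.1%) were gained, among them Mtmr7 (51.7), and Mtmr4 (0.397) was lost (1.59%). Of 192 solute carrier genes, 19 (9.9%) were gained and 9 (4.69%) lost, with Slc7a11, the cystine importer, at 6.53 and Slc26a11 at 0.214. Of 31 genes of prostaglandin, nitric oxide and antioxidant enzymes, 7 (22.6%) were gained, such as Ptgs2 (55). Keap1 (0.45), the inhibitor of the antioxidant factor NRF2, was the 1 lost (3.23%). Gm14047, annotated across the Il1b locus, had no count at 0 min. With that 0 set to 3 counts it was 90-fold higher at 120 min, and the lower limit of its interval was 72.7.

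In further lists, where 5.92% of all genes were gained and 5.48% lost, 2 (5.56%) of 36 MAP kinase cascade genes were lost, 1 (3.85%) of 26 glycolysis genes was gained and 1 lost, 1 (1.54%) of 65 translation factor genes was gained, 3 (7.32%) of 41 chaperone genes were gained, and 1 (1.75%) of 57 small nucleolar RNAs was gained. Of 582 microRNA genes, 7 were tested and 3 of these (42.9%) gained.

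The summed counts of the spike-in transcripts give a library factor of 1.142 for 120 min over 0 min. This lies between that of the size factors (1.056) and of the total counts (1.214). The sum rests mostly on FLIVT, which had 28884 counts at 0 min and 33816 at 120 min. BGIVT had 7148 and 7345, a smaller relative rise, so the factor does not hold for each transcript alone.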
